A study of Homo sapiens with 12 samples.

Results

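The HOX genes, which encode the homeodomain transcription factors that set position along the body axis, were followed through the 4 HOX clusters in EW8 and TC71, a pair of Ewing sarcoma cell lines. The genes were the rows of the count table whose symbol begins with HOXA, HOXB, HOXC or HOXD, together with the long noncoding RNAs HOTAIR, HOTTIP and HOTAIRM1 where these had a row, leaving out symbols that end in -DT. They came to 41 of 20771 genes, of which 31 code for protein and 10 are noncoding: 5 in HOXA, 13 in HOXB, 13 in HOXC and 10 in HOXD. HOTAIR was the one of the 3 named noncoding RNAs with a row. The annotation holds 39 coding HOX genes, and the other 8 were not analysed here. In hg38 coordinates the genes span 27141052 to 27200091 on chromosome 7 for HOXA, 48540894 to 48728750 on chromosome 17 for HOXB, 53935328 to 54056030 on chromosome 12 for HOXC and 176092721 to 176190907 on chromosome 2 for HOXD.

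The study asked which genes respond when Ewing sarcoma cells lose RRM1, the large subunit of ribonucleotide reductase. In the knockout lines made from EW8 and from TC71, labelled RRM1-KO by the study, the endogenous RRM1 gene was disrupted with Cas9, and RRM1 protein came from a codon-optimized transgene that doxycycline switches on. Each line gave 3 libraries labelled 0 h, from cells with doxycycline, and 3 labelled 48 h, from cells without it for 48 h, so that all 4 groups carry the knockout, the transgene and the Cas9 vector. Both were derived from single cells, so each group stands for 1 line of cells, and a difference between EW8 and TC71 may belong to the line or to the clone. Removal of doxycycline and loss of RRM1 cannot be told apart in this design.

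HOX genes lie in each cluster in the order of their paralog number, and in the embryo genes of low number are active earlier and nearer the head, while genes of high number are active later and nearer the tail and the limb tip. HOX proteins bind DNA with the TALE homeodomain proteins PBX and MEIS. Polycomb complexes hold the clusters silent, in part through methylation of a lysine of histone H3, the Polycomb mark. Trithorax complexes keep them active, and retinoic acid induces genes of low number. Ewing sarcoma cells are known for active genes at the high-number end of HOXD, HOXD13 among them, which the EWSR1::FLI1 fusion is linked to.

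Counts per library summed to between 18468485 and 35698991 over all genes, with a median of 24255852.5. RRM1 itself had 166 to 317 counts in EW8 at 0 h against 1201 to 1514 at 48 h, and 316 to 422 against 674 to 778 in TC71. The transgene is codon optimized, and whether any of these reads came from it was not tested, so they do not check the labels. All 8 Ewing sarcoma markers examined, among them NKX2-2, NR0B1 and CD99, were expressed, with a sum of 1242 to 1295 CPM (counts scaled to library size, with TMM factors) per library in EW8 at 0 h, 1160 to 1200 at 48 h, and 1337 to 1381 over both times in TC71. Of these, BCL11B was called lower at 48 h in EW8 (a log2 fold change of -1.11, with -0.95 in TC71), NR0B1 rose by 0.98 in EW8, and the part of these markers in the results was not tested. Of 10 markers of epithelial, blood, muscle, endothelial and neuronal cells, 5 had a row, and their sum was 5.08 to 10.8 CPM, most of it SYP at 4.55 to 10.3 CPM. That sum was 10.7 to 10.8 CPM in EW8 at 48 h against 5.08 to 6.19 at 0 h, and its part in the results was not tested. In RNA from bulk cultures, fewer cells that express a gene and less RNA of it per cell cannot be told apart.

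HOXD was the cluster in which the lines were most alike at 0 h and held the gene with the highest level, so the 250 bases before the RefSeq start of 4 of its genes are shown, with CG dinucleotides in capitals and all on the + strand of GRCh38.p14. HOXD1 (chr2:176188418-176188667) and HOXD3 (chr2:176157057-176157306) stand for the low-number end, HOXD10 (chr2:176116528-176116777) and HOXD13 (chr2:176092471-176092720) for the high-number end.
HOXD1: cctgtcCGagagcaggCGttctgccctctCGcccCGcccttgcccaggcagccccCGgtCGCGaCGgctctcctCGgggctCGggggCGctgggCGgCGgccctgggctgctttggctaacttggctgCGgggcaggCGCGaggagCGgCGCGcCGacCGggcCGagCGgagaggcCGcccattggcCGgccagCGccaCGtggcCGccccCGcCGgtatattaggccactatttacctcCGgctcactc
HOXD3: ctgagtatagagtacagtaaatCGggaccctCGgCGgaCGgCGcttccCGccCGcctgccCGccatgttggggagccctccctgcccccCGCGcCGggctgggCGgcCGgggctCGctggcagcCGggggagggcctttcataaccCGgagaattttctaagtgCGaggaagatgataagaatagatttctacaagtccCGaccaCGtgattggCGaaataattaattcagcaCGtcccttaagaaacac
HOXD10: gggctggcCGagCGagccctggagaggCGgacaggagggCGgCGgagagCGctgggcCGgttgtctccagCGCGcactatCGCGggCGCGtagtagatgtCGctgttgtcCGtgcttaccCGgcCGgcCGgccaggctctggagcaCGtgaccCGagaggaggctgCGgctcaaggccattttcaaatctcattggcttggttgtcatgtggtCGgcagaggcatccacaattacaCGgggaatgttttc
HOXD13: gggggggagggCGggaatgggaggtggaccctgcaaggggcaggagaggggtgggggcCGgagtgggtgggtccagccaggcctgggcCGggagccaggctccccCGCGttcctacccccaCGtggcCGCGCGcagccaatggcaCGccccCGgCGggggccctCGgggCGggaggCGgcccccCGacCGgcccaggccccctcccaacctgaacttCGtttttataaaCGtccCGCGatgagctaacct
HOXD1 held 31 CG dinucleotides, HOXD3 21, HOXD10 23 and HOXD13 21, against a median of 11 in the same window of 35116 RefSeq promoters. That set, called all promoters below, leaves out a chromosome that holds no HOX cluster. The promoter table held 20 promoters of 18 of the 41 genes, with none for HOXB2, HOXB9 and HOXC8. The 14 promoters of coding HOX genes had a median of 21 CG dinucleotides and a range of 4 to 40, and the 6 of noncoding HOX genes a median of 3.5 and a range of 1 to 6. The AP-1 motif TGACTCA, or its other strand TGAGTCA, was in none of the 20 and in 4.20% of all promoters. The motif TATAAA, or TTTATA, was in 5 of the 20, both HOXA10 promoters, HOXA9, HOXB-AS4 and HOXD13, and in 10.7% of all. The PBX-HOX motif TGATTNAT, or ATNAATCA, was in 1 of the 20, that of HOXD11, and in 2.48% of all.

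The HOX code at 0 h was led by HOXD13 in both lines. Levels are given as CPM per kilobase of annotated exon, so that genes of different length can be compared. HOXD13, the last gene of its cluster and a regulator of digit formation, was the most abundant HOX RNA, at 49.2 ± 1.10 CPM per kb in EW8 and 59.1 ± 1.36 in TC71 (SD, n = 3 libraries each). In EW8 it was followed by HOXD10 at 19.7 ± 1.36, HOXB13 at 18.9 ± 0.936 and HOXB7 at 18.7 ± 0.677 CPM per kb, whose order is within their spread, then by HOXD9 at 13.1 ± 1.03 and HOXD8 at 10.9 ± 0.388. In TC71 the order was HOXB7 at 21.6 ± 0.593, HOXD10 at 19.0 ± 0.432, then HOXB13 at 11.6 ± 0.860, HOXD9 at 11.6 ± 0.617 and HOXB9 at 10.9 ± 0.314 CPM per kb, the last 3 within their spread, and HOXD8 at 9.60 ± 0.236. At a level of 1 CPM per kb or more stood 20 of the 41 genes in EW8 and 25 in TC71 at 0 h, and 21 and 23 at 48 h. HOXD12, beside HOXD13, stood at 0.134 CPM per kb in EW8 and 0.182 in TC71. In HOXA, the highest gene was HOXA10, at 1.93 CPM per kb in EW8 and 0.440 in TC71.

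**Figure D1:**
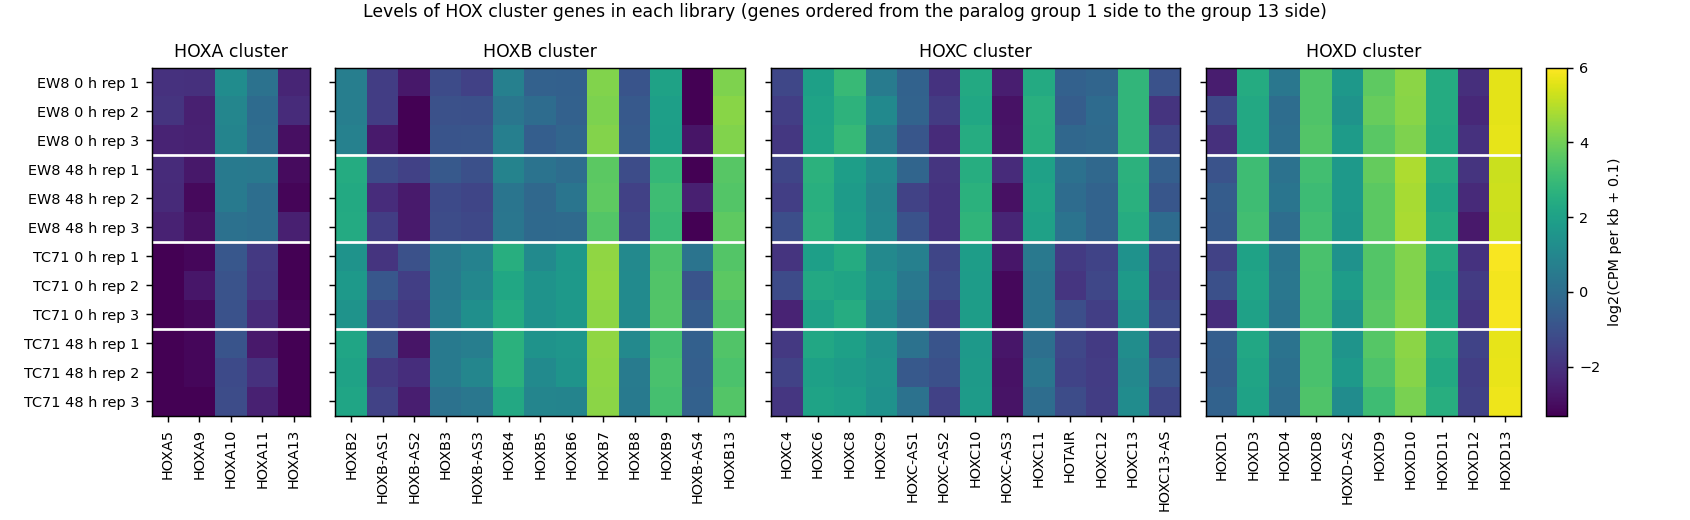
Level of each of the 41 HOX genes (columns, by cluster, ordered from the low to the high paralog numbers) in each of the 12 libraries (rows), as log2(CPM per kb + 0.1), with white lines between the groups. HOXD13 is brightest in all 12 libraries, the HOXB3 to HOXB9 columns are brighter in TC71 than in EW8, least so for HOXB7 at 0 h, and HOXA10, HOXA11 and HOXC11 to HOXC13 are brighter in EW8.

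Summed over genes, the HOX clusters took 466 ± 1.80 CPM in EW8 and 472 ± 2.47 CPM in TC71 at 0 h (SD, n = 3 libraries each). HOXD made up 55.4% ± 0.367 of that sum in EW8 and 57.4% ± 0.928 in TC71. HOXB made up 23.7% ± 0.401 in EW8 and 30.9% ± 0.591 in TC71, HOXC 18.6% ± 0.415 and 11.2% ± 0.365, and HOXA 2.28% ± 0.313 and 0.459% ± 0.0440. The ranges of the lines did not overlap for any of the 4 clusters, and the gap was widest in HOXA relative to its size. At 48 h the sums were 450 ± 5.56 CPM in EW8 and 444 ± 9.16 in TC71, and HOXD made up 57.9% ± 0.127 and 57.6% ± 0.605. With 3 libraries against 3, an exact permutation test cannot give a p below 0.10, so these sums are given as a description.

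**Figure D2:**
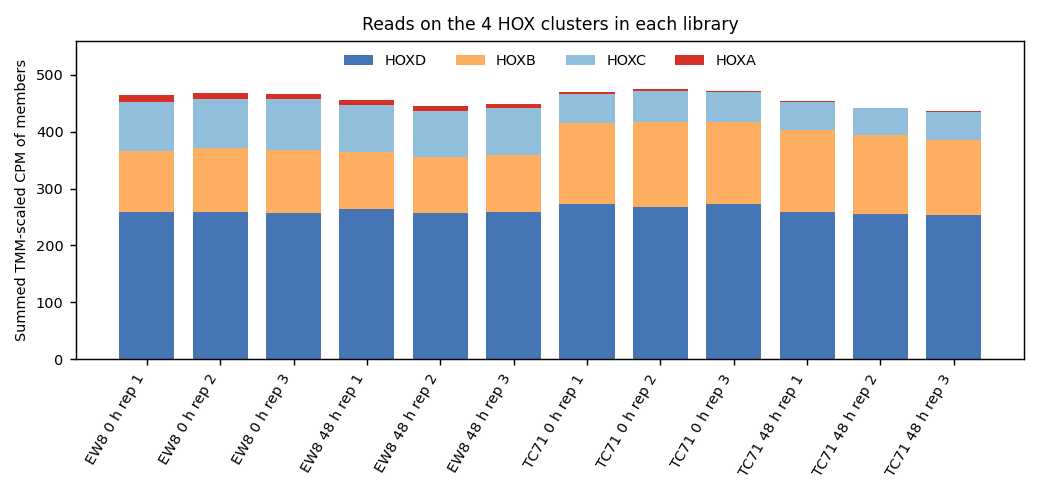
Summed CPM of the HOX genes of each cluster (stacked bars from 0) in each of the 12 libraries. The HOXD part lies between 253 and 273 CPM in every library, while the HOXB part is larger and the HOXC and HOXA parts are smaller in TC71.

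The cell lines differed at 0 h by cluster: HOXA and the high-number end of HOXC were higher in EW8, the middle of HOXB was higher in TC71, and no HOXD gene passed the 2-fold threshold. Of the 41 genes, 36 had enough counts to be tested, and HOXA5, HOXA9, HOXA13, HOXB-AS2 and HOXC-AS3 did not. Calls required a fold above 2 and, after adjustment, a p below 0.05 (edgeR's quasi-likelihood test, Benjamini-Hochberg over all 16515 genes tested). Of the 36, 6 were called higher in EW8 (16.7%), against 4.77% of all genes tested, and 9 were called lower (25.0%), against 11.9% of all. By adjusted p alone, 11 were higher, against 32.8% of all genes, and 14 were lower, against 32.9%. The median size of the log2 difference was 0.77 over the 36 genes and 0.37 over all genes tested.

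**Figure D3:**
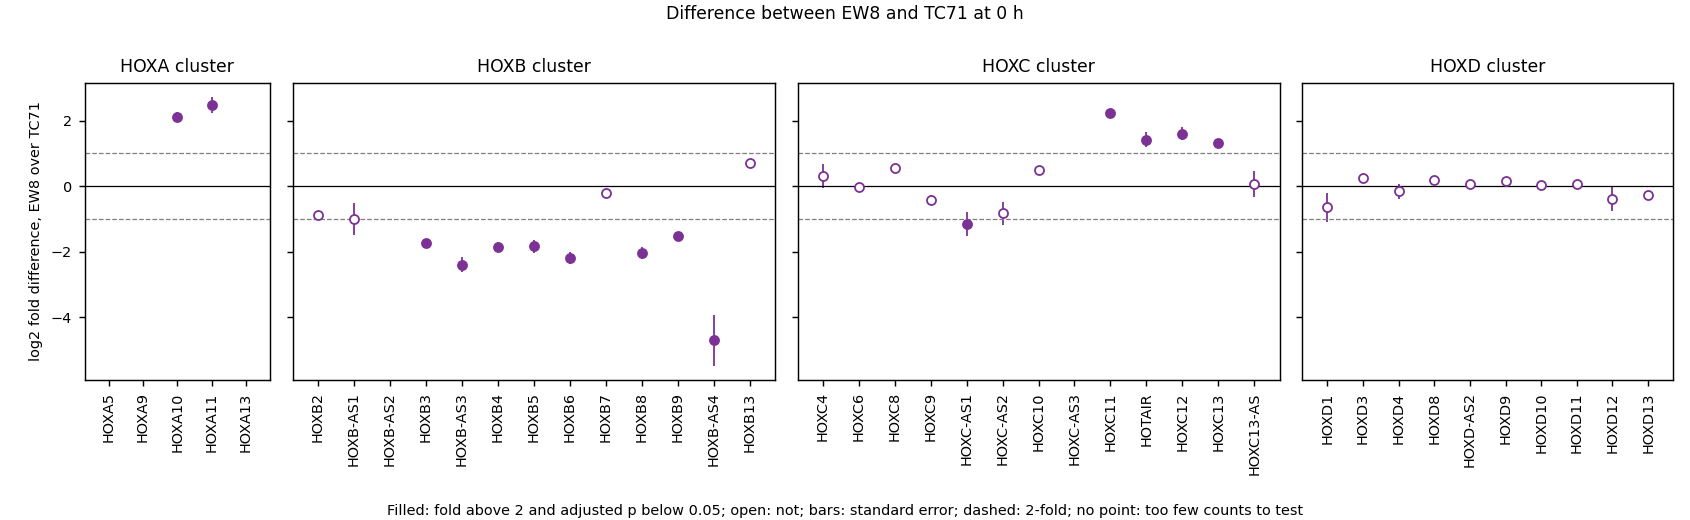
log2 fold difference of EW8 over TC71 at 0 h (vertical axis, with its standard error) for the 36 HOX genes tested, in cluster order. Filled points are the 15 called genes: 2 of HOXA and 4 of HOXC above the upper dashed 2-fold line, 8 of HOXB and 1 of HOXC below the lower one, and none of HOXD.

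HOXB genes from HOXB3 to HOXB9, apart from HOXB7, were called lower in EW8. HOXB3 had 58, 52 and 106 counts in the EW8 libraries at 0 h and 255, 197 and 254 in those of TC71, a log2 difference of -1.75 (SE 0.13, adjusted p = 1.32e-13). HOXB4, known for expanding blood stem cells, had 71, 41 and 100 against 303, 190 and 254 counts, a difference of -1.85 (SE 0.14). HOXB5 had 27, 29 and 36 against 105, 100 and 118 counts, a difference of -1.84 (SE 0.19). For each of these the CPM of every EW8 library lay below that of every TC71 library. HOXB6 had 37, 29 and 61 against 212, 164 and 191 counts (-2.19, SE 0.17), HOXB8 had 24, 21 and 43 against 130, 102 and 122 (-2.04, SE 0.18), and HOXB-AS3, a noncoding RNA from the other strand of this stretch, had 11, 13 and 28 against 85, 73 and 111 (-2.40, SE 0.22). Exons of HOXB-AS3 share 425 bases with HOXB6 on the other strand, and those of HOXB6 share 433 bases with HOXB3 on the same strand, so these genes may share reads and their differences may not be separate. HOXB9 had 236, 168 and 308 counts in EW8 and 731, 575 and 697 in TC71, a difference of -1.52 (SE 0.07, adjusted p = 8.20e-19).

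HOXB7 and HOXB2 were also lower in EW8 but by less than 2-fold, and HOXB13 was higher. HOXB7, which lies between HOXB6 and HOXB8, had 652, 478 and 965 counts in EW8 and 885, 688 and 772 in TC71, or 28.5 ± 1.03 and 32.9 ± 0.901 CPM, a log2 difference of -0.20 (SE 0.06, adjusted p = 0.00327). HOXB13, the prostate and tail gene at the far end, was higher in EW8, with 1255, 1058 and 1874 against 911, 782 and 815 counts, or 57.6 ± 2.84 and 35.3 ± 2.61 CPM, a difference of 0.71 (SE 0.06, adjusted p = 1.78e-12). HOXB2, at the low-number end, was lower in EW8 by less than 2-fold (-0.87, SE 0.11), and passed 2-fold with scaling to total counts alone. HOXB-AS4, named after its values were seen, had 1 count over the 3 EW8 libraries and 35 over those of TC71, a ratio of 39.3 (95% exact binomial interval 6.61 to 1597, which covers counting error only). HOXB13 lies 98.4 kb from HOXB9.

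HOXC differed along its length. HOXC11 had 379, 334 and 604 counts in EW8 and 111, 76 and 89 in TC71, or 18.1 ± 1.31 and 3.85 ± 0.249 CPM, a log2 difference of 2.22 (SE 0.10, adjusted p = 1.08e-19). HOXC12 had 54, 49 and 88 against 23, 20 and 18 counts, a difference of 1.61 (SE 0.20). HOXC13, a hair and nail regulator, had 377, 285 and 535 against 164, 157 and 148 counts, a difference of 1.31 (SE 0.09). The EW8 libraries lay above all TC71 libraries for all 3 of these genes in CPM. HOTAIR, the noncoding RNA between HOXC11 and HOXC12 that is known for its link to Polycomb proteins, had 46, 31 and 78 against 17, 11 and 28 counts, a difference of 1.42 (SE 0.24, adjusted p = 3.20e-06). Toward the low-number end, HOXC10 was higher in EW8 by 0.50 (SE 0.09) and HOXC8 by 0.54 (SE 0.09), both past adjusted p but under 2-fold. HOXC6 had 300, 252 and 478 against 346, 342 and 332 counts, and its CPM overlapped between the lines (-0.03, 95% interval -0.21 to 0.15). HOXC9 (-0.43, SE 0.16) and HOXC-AS2 (-0.83, SE 0.36) were lower in EW8. HOXC-AS1, named after its values were seen, was called lower in EW8 with 9, 7 and 9 against 25, 15 and 15 counts (-1.15, SE 0.36), a call that was lost without EW8 0 h replicate 3 (-0.94) or without TC71 0 h replicate 1 (-0.96).

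Both HOXA genes that could be tested were called higher in EW8. HOXA10, known for roles in uterus, hind limb and blood, had 188, 119 and 212 counts in EW8 and 48, 32 and 37 in TC71, or 7.17 ± 0.936 and 1.63 ± 0.139 CPM, a log2 difference of 2.12 (SE 0.15, adjusted p = 3.40e-14). HOXA11, a limb and uterus gene, had 64, 40 and 80 against 14, 10 and 8 counts, a difference of 2.48 (SE 0.26, adjusted p = 2.10e-10). The other 3 HOXA genes had at most 11 counts in any library. HOXA13 had 11, 11 and 5 counts in EW8 and 0, 0 and 1 in TC71, a ratio of 24.0 (95% exact binomial interval 3.96 to 984). HOXA5 had 6, 5 and 5 counts in EW8 and 0 in every TC71 library, at least 4.75-fold higher in EW8 against a floor of 3 counts over the group, and HOXA9 had 10, 4 and 8 against 1, 3 and 1.

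HOXD showed the smallest differences between the lines. Its 10 genes were all tested, and 0 were called by edgeR or by DESeq2, while 2 were higher and 1 lower in EW8 at an unadjusted edgeR p below 0.05. They had log2 differences from -0.65 to 0.26 and a median of 0.05. HOXD13 had 2671, 2058 and 3999 counts in EW8 and 3915, 2840 and 3458 in TC71, or 119 ± 2.66 and 143 ± 3.29 CPM, and was lower in EW8 by a log2 difference of -0.26 (SE 0.04, adjusted p = 2.11e-06). HOXD10, a limb and motor neuron gene, had 1168, 888 and 1481 against 1256, 947 and 1171 counts, and its CPM overlapped between the lines (0.05, 95% interval -0.07 to 0.17). HOXD3 (0.26, SE 0.07) and HOXD8 (0.19, SE 0.06) were higher in EW8. The other 6 did not pass adjusted p, and among them HOXD9, HOXD11 and HOXD-AS2 had 95% intervals within -0.18 to 0.34. HOXD1 had the widest difference, -0.65, on 3 to 15 counts per library, with an interval from -1.53 to 0.23. Exons of HOXD10 and HOXD11 share 452 bases on the same strand, so reads there could be split between them.

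In EW8, the libraries labelled 48 h held more HOXB2, HOXB9 and HOXD1 RNA and less HOXC8 RNA than those labelled 0 h. Of the 36 genes, 4 were called higher at 48 h (11.1%), against 13.9% of all genes tested, and 1 was called lower (2.78%), against 3.35% of all. By adjusted p alone, 10 rose, against 37% of all genes, and 9 fell, against 31.6%. The median log2 fold change was 0.00 over the 36 genes and 0.03 over all genes tested, with 19 of the 36 above 0 and 17 below. None of these shares of HOX genes exceeded its background.

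**Figure D4:**
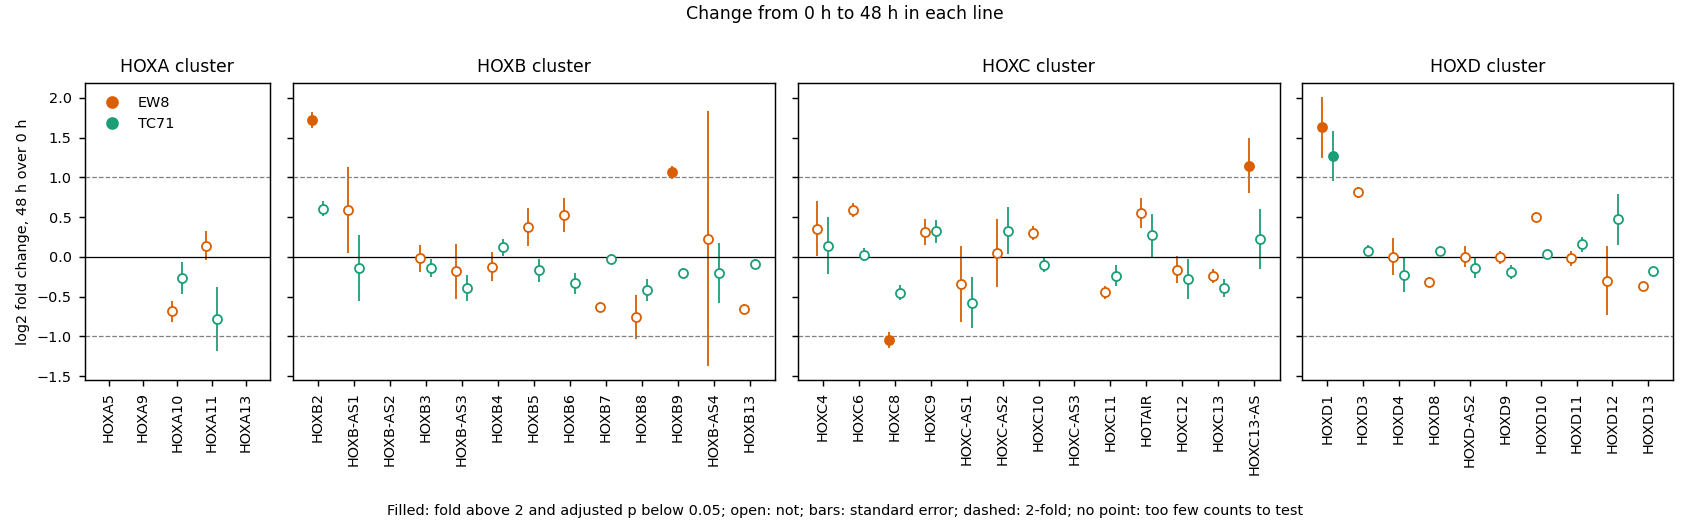
log2 fold change of 48 h over 0 h (vertical axis, with its standard error) in EW8 (orange) and TC71 (green) for the 36 HOX genes tested, in cluster order. Filled points are called: HOXB2, HOXB9, HOXC13-AS, HOXC8 and HOXD1 in EW8 and HOXD1 in TC71, and HOXB9 lies above 0 in EW8 while HOXB7 and HOXB8 beside it lie below 0.

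HOXB2, a hindbrain gene, went from 84, 64 and 128 counts to 240, 242 and 254 in EW8, or from 3.75 ± 0.134 to 12.4 ± 0.315 CPM (SD, n = 3 libraries each). All 48 h libraries lay above all 0 h libraries, and the log2 fold change was 1.72 (SE 0.11, adjusted p = 2.85e-16). HOXB9, a gene of the trunk, went from 236, 168 and 308 counts to 355, 441 and 411, or from 9.78 ± 0.491 to 20.4 ± 1.63 CPM. Its log2 fold change was 1.06 (SE 0.08, adjusted p = 5.43e-14), just over the 2-fold threshold, and came to 0.99 without EW8 0 h replicate 3 and to just under 2-fold without EW8 48 h replicate 2. HOXD1, named after its values were seen, rose from 3, 10 and 9 counts to 15, 21 and 20, a log2 fold change of 1.63 (SE 0.39, adjusted p = 0.000374). Of the exon length of HOXD1, 52.4% lies opposite exons of a gene on the other strand, and the strand setting of the counting is not given in the sources used here. HOXC13-AS, likewise named after its values were seen, rose from 13, 4 and 13 counts to 16, 13 and 25, or 0.398 ± 0.170 to 0.909 ± 0.290 CPM, a change of 1.14 (SE 0.35, adjusted p = 0.00400) that was 0.92 without EW8 0 h replicate 2 and 0.86 without EW8 48 h replicate 3 (then adjusted p = 0.0613).

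The genes that rose by less than 2-fold in EW8 were HOXD3, HOXD10, HOXC6, HOXC10, HOXB6 and HOTAIR. HOXD3, which acts in the formation of the neck vertebrae, went from 437, 314 and 587 counts to 599, 634 and 675, or from 18.3 ± 0.691 to 32.2 ± 0.705 CPM, a log2 fold change of 0.81 (SE 0.07, adjusted p = 1.46e-12). HOXD10 had 1168, 888 and 1481 against 1340, 1342 and 1412 counts, or 49.1 ± 3.38 and 69.2 ± 1.99 CPM, a change of 0.50 (SE 0.06). HOXC6 had 300, 252 and 478 against 402, 404 and 443 counts, a change of 0.58 (SE 0.09). Libraries at 48 h lay above all those at 0 h in CPM for each of these. HOXC10 changed by 0.30 (SE 0.09), HOXB6 by 0.53 (SE 0.22, adjusted p = 0.0348) and HOTAIR, with 46, 31 and 78 against 60, 54 and 69 counts, by 0.55 (SE 0.19).

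Of the 36 genes tested, HOXC8, a gene of the trunk and forelimb level, fell most in EW8. Its 422, 268 and 599 counts at 0 h became 165, 161 and 176, or 17.4 ± 1.75 against 8.49 ± 0.368 CPM, a log2 fold change of -1.04 (SE 0.10, adjusted p = 1.27e-11) that was -0.92 with scaling to total counts alone. HOXB7 had 652, 478 and 965 against 356, 383 and 350 counts, or 28.5 ± 1.03 and 18.4 ± 1.13 CPM, a change of -0.63 (SE 0.07, adjusted p = 1.72e-10). HOXB13 had 1255, 1058 and 1874 against 683, 687 and 797 counts, or 57.6 ± 2.84 and 36.6 ± 2.30 CPM, a change of -0.65 (SE 0.06, adjusted p = 1.55e-11). All 48 h libraries lay below all 0 h libraries for these 3 genes. HOXB8 fell by 0.76 (SE 0.28) on 12 to 43 counts per library, HOXA10 by 0.68 (SE 0.13), HOXC11 by 0.45 (SE 0.09), HOXD8 by 0.31 (SE 0.06) and HOXC13 by 0.24 (SE 0.09). HOXD13 fell from 119 ± 2.66 to 92.1 ± 2.02 CPM, with 2671, 2058 and 3999 counts before and 1708, 1883 and 1859 after, a change of -0.37 (SE 0.04, adjusted p = 4.62e-09). HOXD13 stayed the highest HOX RNA of EW8 at 48 h at 38.1 CPM per kb, with HOXD10 next at 27.8.

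The 17 other tested genes did not pass adjusted p in EW8. HOXD9, HOXD11 and HOXD-AS2 had log2 fold changes between -0.02 and 0.00 with 95% intervals within -0.27 to 0.27, while HOXB-AS4, with 1 count in each group, had an interval from -3.03 to 3.49. Grouped by paralog number, a grouping chosen after the values were seen, 3 of 7 genes of groups 1 to 4 rose and none fell, 2 of 7 of groups 5 to 8 rose and 4 fell, and 3 of 14 of groups 9 to 13 rose and 5 fell, beside 37% and 31.6% of all genes. Across the 28 coding genes tested, Spearman's rho of paralog number with the change at 48 h was -0.517 for EW8 and -0.344 for TC71. These genes share the libraries and in part overlapping exons, and the values are a description.

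**Figure D5:**
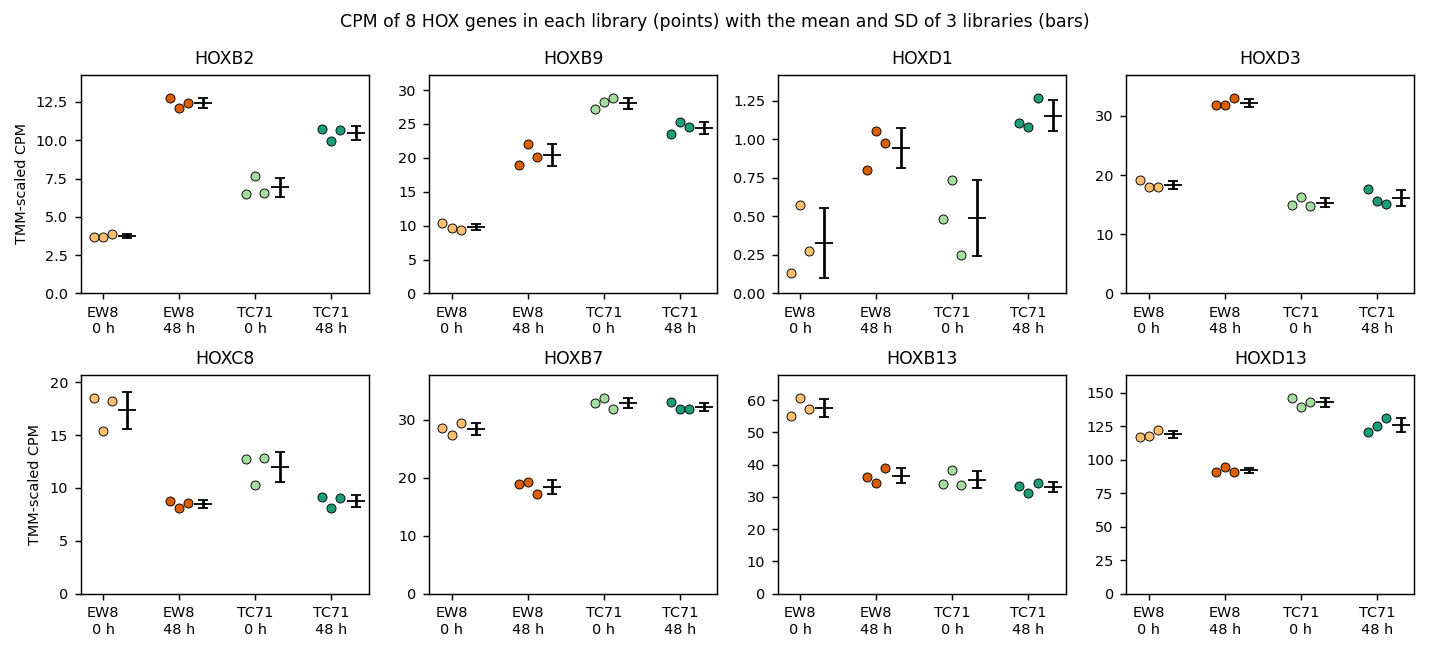
CPM (vertical axis, from 0) of 8 HOX genes in each library (points) with the mean and SD of 3 libraries (bars). HOXB2 is higher at 48 h in both lines, HOXB9 and HOXD3 are higher at 48 h in EW8 with no such rise in TC71, and HOXC8 and HOXD13 are lower at 48 h in both.

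In TC71, 8 of the 36 HOX genes tested passed adjusted p, and none of the 36 was called lower. Of the 36 genes, 1 was called higher at 48 h (2.78%), against 3.26% of all genes tested, and 0 were called lower, against 0.854% (edgeR, with 8 lower at an unadjusted p below 0.05). DESeq2 also called 0 lower. By adjusted p alone, 2 rose, against 22.9% of all genes, and 6 fell, against 19.2%. The median log2 fold change was -0.14 over the 36 genes and -0.00 over all genes tested. The called gene was HOXD1, which rose from 13, 15 and 6 counts to 29, 29 and 41, a log2 fold change of 1.27 (SE 0.32, adjusted p = 0.00144) that was 0.96 without TC71 0 h replicate 3. HOXB2 rose from 175, 156 and 159 counts to 282, 266 and 346, or from 6.92 ± 0.637 to 10.5 ± 0.469 CPM, a change of 0.61 (SE 0.09, adjusted p = 2.38e-06). The 48 h libraries lay above the 0 h libraries for both genes. HOXB-AS2, which was not tested, went from 9, 4 and 4 counts to 1, 3 and 2.

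The 6 genes that fell in TC71 were HOXC8, HOXB8, HOXC13, HOXB6, HOXB9 and HOXD13. HOXC8 went from 341, 210 and 310 counts to 240, 217 and 294, or from 11.9 ± 1.42 to 8.78 ± 0.597 CPM, a log2 fold change of -0.45 (SE 0.10, adjusted p = 0.000242). HOXD13 had 3915, 2840 and 3458 against 3164, 3363 and 4240 counts, or 143 ± 3.29 and 126 ± 5.19 CPM, a change of -0.18 (SE 0.04). HOXB9 had 731, 575 and 697 against 616, 679 and 793 counts, or 28.1 ± 0.811 and 24.5 ± 0.909 CPM, a change of -0.20 (SE 0.06). The CPM of the 48 h libraries lay below that of the 0 h libraries in all 3. HOXC13 fell by 0.39 (SE 0.11), HOXB8 by 0.42 (SE 0.14) and HOXB6 by 0.33 (SE 0.13, adjusted p = 0.0431). In CPM, HOXB6 had 7.90, 8.04 and 7.90 at 0 h and 7.56, 7.09 and 4.51 at 48 h. Its fall thus came mostly from the library at 4.51 CPM. HOXB7, HOXB13, HOXC6, HOXD3 and HOXD10, each past adjusted p in EW8, had TC71 log2 fold changes between -0.09 and 0.07 with 95% intervals within -0.22 to 0.22.

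Across the lines, 19 of the 36 HOX genes tested passed adjusted p in EW8, where 37% of all genes were higher and 31.6% lower, and 8 in TC71, where 22.9% were higher and 19.2% lower. HOXB2 and HOXD1 rose in both, HOXC8, HOXC13, HOXB8 and HOXD13 fell in both, and HOXB6 and HOXB9 rose in EW8 and fell in TC71. The fall of HOXB6 in TC71 came mostly from the 48 h library at 4.51 CPM. The difference of the 48 h changes, EW8 minus TC71, was called positive for 2 of 36 genes (5.56%), against 7.28% of all genes tested, and negative for 0, against 0.981% (edgeR, with 5 negative at an unadjusted p below 0.05). DESeq2 also called 0 negative. By adjusted p alone, 7 were more positive in EW8, against 25.7% of all genes, and 5 more negative, against 22.4%. The called genes were HOXB9, with a difference of 1.26 (SE 0.10, adjusted p = 3.93e-12), and HOXB2, with 1.11 (SE 0.14, adjusted p = 6.09e-08). HOXB9 started 2.87-fold lower in EW8 than in TC71 at 0 h, and its 20.4 CPM in EW8 at 48 h remained under the 24.5 CPM of TC71 at 48 h. HOXB2 ended at 12.4 CPM in EW8, above the 10.5 CPM of TC71, from a start below it. The difference for HOXD1 was 0.36 with a 95% interval from -0.69 to 1.41, and for HOXC13 0.15 with an interval from -0.14 to 0.43.

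Genes that act with or on the HOX clusters were examined from lists of TALE cofactors, Polycomb and Trithorax subunits and the retinoic acid pathway. By adjusted p, 2 of 8 TALE genes tested were higher and 5 lower at 48 h in EW8, and 1 was higher and 3 lower in TC71, with medians of -0.37 and -0.11. Over all genes tested, 37% were higher and 31.6% lower by adjusted p in EW8, and 22.9% and 19.2% in TC71, against which the counts of these lists are to be read. PBX4, named after its values were seen, was called higher in EW8 (1.17) from 0.472 CPM at 0 h. MEIS1, another TALE cofactor, rose by 0.89 in EW8, under 2-fold.

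Of 11 PRC2 genes, which methylate histone H3, 5 rose and 4 fell in EW8 by adjusted p, and none was called in either line by edgeR, with 9 in EW8 and 7 in TC71 at an unadjusted p below 0.05. Of 19 PRC1 genes, 7 rose and 9 fell in EW8, with a median of -0.27, and 8 rose and 4 fell in TC71, beside the same shares of all genes. In EW8, CBX2, a PRC1 subunit that reads the Polycomb mark, fell from 147 ± 11.2 to 70.9 ± 4.02 CPM (-1.05). PHC3 (1.35), RYBP (1.18) and YAF2 (1.41), other PRC1 subunits, were called higher in EW8. In TC71 the changes of CBX2, PHC3, RYBP and YAF2 were -0.08, 0.36, 0.38 and 0.30, and none was called. Of 16 Trithorax and demethylase genes, 7 were higher and 8 lower at 48 h in EW8, with 5 higher and 2 lower in TC71, beside 37% and 31.6% of all genes in EW8 and 22.9% and 19.2% in TC71. KDM6B, which removes the Polycomb mark, rose from 23.1 ± 2.07 to 147 ± 0.690 CPM in EW8 (2.68, adjusted p = 3.29e-26) and from 26.0 ± 1.10 to 41.6 ± 4.47 CPM in TC71 (0.68). KDM6A (1.08) and AFF4 (1.06) were also called higher in EW8.

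By adjusted p, 9 of 13 retinoic acid genes were higher and 2 lower at 48 h in EW8, and 4 were higher and 2 lower in TC71, with medians of 0.29 and 0.00, beside the same shares of all genes. STRA6, the receptor that takes up retinol, rose from 1.69 ± 0.628 to 7.27 ± 1.21 CPM in EW8 (2.19) and from 8.64 ± 1.56 to 14.7 ± 1.38 CPM in TC71 (0.77). CRABP2, a retinoic acid carrier named after its values were seen, was called lower in EW8 (-1.67) at 0.567 CPM or less. Between the lines at 0 h, 4 of the 13 were called higher in EW8 and 3 lower, against 4.77% and 11.9% of all genes. RARB, a retinoic acid receptor and itself a target of the acid, stood at 0.393 ± 0.0390 CPM in EW8 and 7.78 ± 0.715 in TC71 (-4.28), and CYP26B1, which degrades the acid, at 154 ± 3.21 and 44.3 ± 1.53 CPM (1.80). What these genes have to do with the levels of HOX genes was not tested.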

How the data were processed

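RNA of 12 libraries, 3 in each of 4 groups, was isolated by the authors with the RNeasy Plus Mini Kit, made into libraries with a stranded poly(A) kit, read as pairs on a NovaSeq instrument, checked with FastQC and mapped to hg38 with STAR. The authors deposited raw counts per gene, with no normalization. The counting tool, its strand setting and the annotation are not given in the sources used here, and neither is whether replicates were separate cultures, so p-values measure the spread between these libraries, which may be technical. No gene in the table summed to fewer than 21 counts, so genes of lower counts are not analysed here.

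The test was edgeR's (version 4.0.16, R 4.3.3) robust quasi-likelihood test, fitted to all 4 groups with TMM scaling and no block, on the 16515 genes kept by filterByExpr (minimum count 10, minimum total 15). The biological coefficient of variation was 4.17%. SE is that of the fitted log2 fold change. Levels are TMM-scaled CPM, divided where stated by the union exon length of GENCODE release 44. A floor of 3 counts was used for genes at 0. Depth, from 18468485 to 35698991 counts per library, limits genes of about 10 counts or fewer to wide intervals. Alternatives were other scalings and filters, DESeq2 1.42.0, fits on 2 groups, other thresholds, a replicate block and leaving out each library. The fit was tested on simulated counts. Figures were drawn with matplotlib 3.10.9.

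The HOX genes and lists were chosen with earlier results of these data known. Named genes are those called in any comparison with a mean of at least 50 counts in the higher group and the 2 highest per kilobase of each cluster in each line at 0 h, with other HOX genes given as values or ranges. List genes are named where called at 48 h with such a mean. Some genes under these rules are not reported here. Sequences are from RefSeq on GRCh38.p14.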

Additional observations from a re-analysis of the deposited data

Results flagged for a closer look

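The change from 0 h to 48 h differed between EW8 and TC71 by adjusted p (edgeR, interaction of line and time) for 12 of the 36 HOX genes tested, where 48.1% of all genes tested did. On the log2 scale, as EW8 minus TC71, the difference was 1.26 for HOXB9, 1.11 for HOXB2, 0.86 for HOXB6, 0.74 for HOXD3, 0.56 for HOXC6, 0.47 for HOXD10 and 0.40 for HOXC10. It was -0.61 for HOXB7, -0.60 for HOXC8, -0.56 for HOXB13, -0.39 for HOXD8 and -0.19 for HOXD13. HOXB6, HOXB9, HOXC10 and HOXD8 had changes of opposite sign in the lines, and of these HOXB6 and HOXB9 passed adjusted p in both. For HOXB6 the fall in TC71 came mostly from the 48 h library at 4.51 CPM. Each line is 1 clone, so a difference of line and a difference of clone cannot be told apart.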

How the results depend on the processing

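For the HOX genes past adjusted p in a comparison, and for that comparison only, 1196 values were computed under alternatives other than changed thresholds. Of these, 1187 kept their direction and stayed called or not called, 8 lost the call, 1 gained it and none reversed. A gene under 2-fold counted as kept even where it no longer passed adjusted p. The tally therefore does not show whether such genes stayed past adjusted p. With no fold threshold the counts became 10 higher and 9 lower in EW8, 2 and 6 in TC71, 7 and 5 for the difference of the changes, and 11 and 14 between the lines. With a fold of 1.5, 5 were lower in EW8, 2 were higher in TC71, and 4 and 2 were called for the difference. With at least 10 counts in every library, a filter that removes HOXD1 and other low genes before the test, 2 were higher in EW8 and 0 in TC71. With no filter, 2 were lower in EW8, HOXC8 and HOXA9, and with total counts alone 0. Leaving out 1 library at a time gave 1 to 2 lower in EW8 (HOXA13 was added without EW8 0 h replicate 3 or without EW8 48 h replicate 3), 0 to 1 higher in TC71 (0 without TC71 0 h replicate 3), and 0 to 1 lower in TC71 (HOXA11 without TC71 48 h replicate 2).

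The correlation of same-numbered deviations lay between -0.138 and -0.015. With so few libraries this cannot show whether cultures were paired by number. With the replicate block, 4 HOX genes were called higher and 1 lower in EW8, 1 and 0 in TC71, 2 and 0 for the difference, and 6 and 9 between the lines, as without it. Depth limits HOXA5, HOXA9, HOXA13, HOXC4, HOXD1, HOXD4 and HOXD12 and the noncoding genes HOXB-AS1, HOXB-AS2, HOXB-AS4, HOXC-AS1, HOXC-AS2, HOXC-AS3 and HOXC13-AS, all at 41 counts or fewer in every library.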

Other observations

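Genes within the spans of the clusters that are not HOX genes were also read. In the space between HOXB9 and HOXB13, the noncoding RNA AC103702.2 had 0, 0 and 1 counts in the EW8 libraries at 0 h and 96, 66 and 60 in those of TC71. LINC02086, which lies beside it, had 0, 0 and 1 against 24, 27 and 30 counts. Both were called lower in EW8 (edgeR, adjusted p = 4.30e-16 and 1.32e-09), as were HOXB3 to HOXB9 apart from HOXB7. HOXB7 and HOXB13 were expressed in EW8. PRAC1 and PRAC2, beside HOXB13, were also called lower in EW8 at 0 h, with log2 differences of -1.06 and -1.15. PRAC1, the neighbour of HOXB13 expressed in prostate and colon, went from 436, 347 and 633 counts to 207, 199 and 195 in EW8, a log2 fold change of -0.93. In TC71 it had 1053, 804 and 1034 against 918, 873 and 1002 counts, a change of -0.30. HAGLR, a noncoding RNA that overlaps exons of HOXD1 and HOXD3 on the other strand, changed by 0.43 in EW8 and 0.02 in TC71. AC012531.1, within HOXC, changed by -0.70 and -0.71.

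CDX2, a homeobox gene known to regulate HOX genes, was called higher in EW8 at 0 h (edgeR, log2 difference 4.11, adjusted p = 1.89e-07) at a low level, with 22, 14 and 23 counts against 1, 0 and 2. A list of 19 tested neighbours of the clusters held genes on the flanks and also PRAC1 and PRAC2, which lie within the HOXB span. Of these 19, 5 rose and 10 fell in EW8 by adjusted p, beside 37% and 31.6% of all genes. Among them 1 was called higher, beside 13.9%. That gene, TTLL6, a tubulin glutamylase gene beside HOXB13, rose from 0.896 ± 0.0928 to 4.41 ± 0.759 CPM in EW8 (SD over 3 libraries), which is 2.32 on the log2 scale (adjusted p = 1.31e-12).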
